A study of Mus musculus with 9 samples.

Results

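Open chromatin was mapped by ATAC-seq, in which a transposase cuts and tags accessible DNA, in antigen-specific CD8 T cells from the tumor-draining lymph nodes of mice with melanoma. The regions described here had a peak within rank 19499 of all 3 lists made 4 days after cell transfer and of none of the 3 lists made 8 days after it. To choose them, each list was cut to its 19499 strongest peaks by q value, which is the whole length of the shortest day 4 list, and peaks of all 9 full lists that shared a base were joined into union regions. Of 62963 union regions, 397 had a peak of the reduced list in every day 4 list and in no day 8 list, and these are called the members. The ranks of days 4 and 8 chose the members, so differences between those days are given as descriptions, without tests. Day 21 was not used in the choice, but a region picked for a high rank on one day and a low rank on another tends to move back on a further day whatever the cells do, so day 21 was described without tests as well.

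All mice were C57BL/6 bearing B16.Gp, the B16.F10 melanoma line made to express the glycoprotein of lymphocytic choriomeningitis virus. At 8 days after the tumor cells, they received 500000 naive CD44- P14 cells from TCF-1-GFP reporter mice, whose transgenic receptor recognises the GP33-41 epitope of that glycoprotein on H-2Db. CD45.1+CD44+ CD8 T cells were sorted on day 4, day 8 or day 21 after the transfer, with 3 libraries of 50000 cells a day and no untransferred or tumor-free control among the groups. The deposited lists name the 3 libraries of a day with 1 shared sample number and no label assigns them to separate animals, so spreads between lists may be technical. At 6 T cell marker genes, 13 to 20 of 55 union regions were called per list on day 4, 41 to 43 on day 8 and 40 to 45 on day 21, and each gene had called regions on each day. At 5 B cell markers, 0 to 1 of 14 regions were called on day 4, 10 to 11 on day 8 and 9 to 13 on day 21, with Ms4a1 at 0 throughout. At 4 stromal and endothelial markers, 0 to 1 of 22 were called on day 4, 13 to 16 on day 8 and 13 to 15 on day 21, and Pdgfra, Kdr and Cdh5 were at 0 on day 4. Called regions were 8 to 12 of 28 on day 4, 16 to 19 on day 8 and 20 to 22 on day 21 at 3 NK cell markers, with Ncr1 at 0 on day 4. They were 4 to 5 of 11, 6 to 7 and 8 to 10 on the same days at 5 melanocyte markers, with Tyr and Sox10 at 0 throughout. At 5 myeloid markers they were 2 to 3 of 15, 8 to 11 and 10 to 12, with Lyz2 at 0 throughout, and at 3 CD4 and regulatory T cell markers they were 1 to 2 of 8, 7 to 8 and 6, with Foxp3 at 0 throughout. For scale, the 9 lists together gave 62963 union regions. The lists held 19499 to 22250 peaks on day 4, 47513 to 50835 on day 8 and 46492 to 51671 on day 21. The part of other cells and of list length in these counts and in the ranks was not tested.

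Naive CD8 T cells that meet antigen in a lymph node divide and remodel their chromatin, opening elements bound by factors of the AP-1, IRF, NFAT and NF-kB families. In draining lymph nodes some of these cells keep features of memory or stem-like T cells, which include the factor TCF-1, the receptor IL-7R and the surface protein SLAMF6. An ATAC-seq peak marks DNA that the transposase could reach and does not by itself show which factor is bound or whether a gene is transcribed.

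The deposited lists hold positions but no sequence, and the RefSeq table of gene start windows for GRCm38.p6, the assembly of mm10, gives 300 bases around a start, of which 250 lie before it and 50 after it. In all, 88 windows of 74 genes lay by at least 150 bases in 70 of the 397 members. The GC content of these 88 windows ran from 39% to 87.0%, and the 4 windows below, picked after the values were seen, show GC-rich and GC-poor member promoters. Capitals mark matches on either strand to the motifs named after them. Dnmt3a, a DNA methyltransferase, is the only gene of the gene lists used here with a start window in a member. Its window at chr12:3891494-3891793, plus strand, has a GC content of 74.0%, with the SP1 and KLF motif GGGCGG at 2 places and the E-box CACGTG at 1 place.
Dnmt3a: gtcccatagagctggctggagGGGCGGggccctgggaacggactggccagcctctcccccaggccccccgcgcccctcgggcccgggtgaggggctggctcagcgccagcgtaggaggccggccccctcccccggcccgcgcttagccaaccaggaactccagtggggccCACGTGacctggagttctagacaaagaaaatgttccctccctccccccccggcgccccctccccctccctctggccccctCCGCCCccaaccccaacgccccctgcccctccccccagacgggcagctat

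The window of Sos2, a guanine nucleotide exchange factor for Ras, lies at chr12:69681803-69682102 on the minus strand, has a GC content of 82.7% and holds GGGCGG at 3 places.
Sos2: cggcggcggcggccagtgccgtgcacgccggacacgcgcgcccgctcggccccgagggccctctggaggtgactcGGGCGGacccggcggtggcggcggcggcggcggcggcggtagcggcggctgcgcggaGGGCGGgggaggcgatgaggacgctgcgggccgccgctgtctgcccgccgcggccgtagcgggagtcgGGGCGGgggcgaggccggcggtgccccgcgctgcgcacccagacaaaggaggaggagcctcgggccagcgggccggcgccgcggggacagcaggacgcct

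A window of Ampd3, an AMP deaminase, lies at chr7:110768372-110768671 on the plus strand, has a GC content of 65.0% and holds the NFY motif CCAAT and the ETS motif CCGGAAG at 1 place each, both on the minus strand.
Ampd3: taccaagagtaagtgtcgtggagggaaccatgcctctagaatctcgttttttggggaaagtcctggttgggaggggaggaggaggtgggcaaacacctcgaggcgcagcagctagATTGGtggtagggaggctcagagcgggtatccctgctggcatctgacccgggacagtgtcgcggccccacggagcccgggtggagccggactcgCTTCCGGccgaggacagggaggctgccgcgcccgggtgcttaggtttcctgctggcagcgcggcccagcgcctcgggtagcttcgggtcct

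Among the GC-poor windows, that of P2ry10, a lysophospholipid receptor gene, lies at chrX:107089083-107089382 on the plus strand, has a GC content of 39.3% and holds the RUNX motif TGTGGT at 2 places.
P2ry10: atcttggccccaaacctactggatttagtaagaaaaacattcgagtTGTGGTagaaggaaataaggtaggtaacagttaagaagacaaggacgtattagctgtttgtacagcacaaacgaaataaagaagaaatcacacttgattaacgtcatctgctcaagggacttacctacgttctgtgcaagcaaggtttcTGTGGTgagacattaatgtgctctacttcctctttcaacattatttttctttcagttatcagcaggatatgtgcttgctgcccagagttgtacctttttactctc

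The working name of these regions was strong day 4 regions, and their values go against the word strong. A peak list ranks peaks from the strongest down. The median rank of the members was 14875, 14326 and 15013 in the 3 day 4 lists, in the later part of the 19499 peaks kept. It was 25284, 25839 and 25423 in the day 8 lists and 22578, 23289 and 23078 in the day 21 lists. The reduction kept 87.6% to 100% of the day 4 peaks but 38.4% to 41.0% of the day 8 peaks and 37.7% to 41.9% of the day 21 peaks, so that a member could be a weak peak on day 4 and still be kept. The rule took 0.631% of all union regions, against 1.37%, or 861 regions, for the mirror rule, which asks for a reduced-list peak in every day 8 list and none from day 4. Among the 14651 regions with a reduced-list peak in all 3 day 4 lists, called the strong day 4 regions below, members made up 3 of the 3663 with mean ranks up to 3881 and 319 of the 3663 with mean ranks from 11756 to 19077. The share of members was 0.0819% in that first set and 8.71% in that last set. Members sat near both thresholds. The best day 8 rank of a member was within 22000 in 186 members and beyond it in 211, and 18 members lay past 2 times the reduced length, or were uncalled, in every day 8 list. Just past the day 8 threshold was a member near Camk2d, with a rank of 19504 in day 8 list 1. A region near Sesn1, ranked 19475 in the same list, was just within the threshold and was not a member. At the day 4 threshold, a region near Dctn1 ranked 19480 in day 4 list 1 and was a member, and a region near Ikzf3 ranked 19519 in that list and was not.

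**Figure D1:**
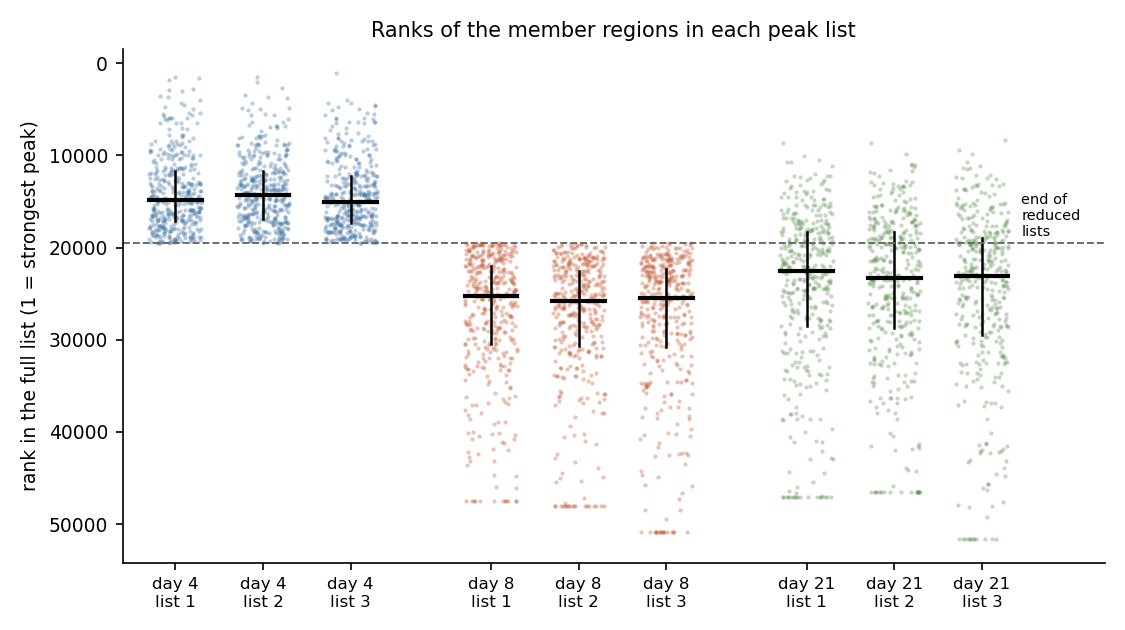
Rank of each of the 397 members in each of the 9 full lists, where 1 is the strongest peak and an uncalled region is plotted at the list's length plus 1. Points are regions, wide black bars are medians and thin bars run between the lower and upper quartiles; the dashed line is rank 19499, and the medians lie at 14326 to 15013 on day 4, 25284 to 25839 on day 8 and 22578 to 23289 on day 21.

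Most members were still called as open on day 8, though a smaller share than of the comparison regions. A peak was called in all 3 full day 8 lists in 368 of the 397 members (92.7%) and in none of them in 4 members. Of the strong day 4 regions as a whole, 99.8% were called in all 3 full day 8 lists and 0.0273%, which are those 4 members, in none. By the rule, any strong day 4 region called in no day 8 list is a member, so this contrast is a description only. The fold enrichment of the members, the summit signal over the local background of the same library as the authors' peak caller gave it, had medians of 4.13, 4.18 and 4.11 in the day 4 lists, 5.02, 4.96 and 4.96 in the day 8 lists, and 5.29, 5.38 and 5.16 in the day 21 lists. The median summit pileup, in overlapping tags recovered from the fold and p value of each peak, was 21 to 25 on day 4, 30 to 34.5 on day 8 and 35 to 43 on day 21. Pileups move with depth, for which the smallest local background of a list stands; it was 2.62 to 3.38 tags on day 4, 2.14 to 2.63 on day 8 and 2.33 to 3.08 on day 21. Regions called in all 9 lists had median folds of 5.70 to 5.75 on day 4, 8.93 to 9.01 on day 8 and 8.65 to 8.86 on day 21. Relative to those regions, the median fold of the members averaged 0.722 ± 0.00414 on day 4, 0.555 ± 0.00275 on day 8 and 0.601 ± 0.00548 on day 21 (SD, n = 3 lists). The 3 values of each day did not overlap with those of the other days. Ranks in the day 4 and day 8 lists chose the members, so that separation is a description only. For the strong day 4 regions the ratio was 1.009 to 1.013 on day 4, 1.007 to 1.008 on day 8 and 1.006 to 1.008 on day 21.

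**Figure D2:**
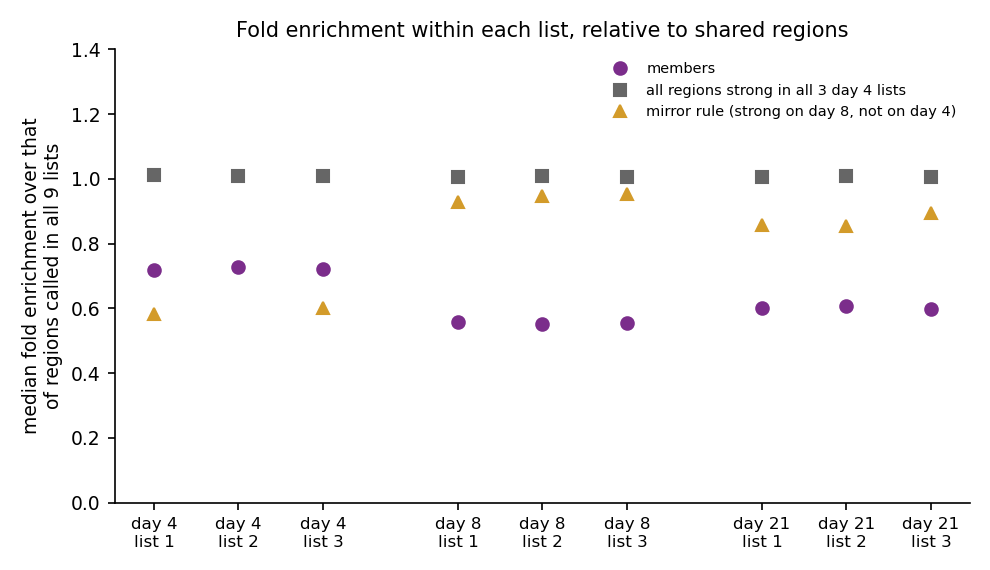
Median fold enrichment of 3 sets of regions in each list, divided by the median of the 15109 regions called in all 9 lists (y axis, a ratio); uncalled regions are left out, and none of the mirror rule regions was called in day 4 list 2. The members lie at 0.719 to 0.727 on day 4, 0.552 to 0.557 on day 8 and 0.597 to 0.607 on day 21, below the strong day 4 regions in every list.

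Of the 358 members called in all 9 lists, 171 had a higher fold in every day 8 list than in every day 4 list, and 15 had a lower fold in every day 8 list. The same held for 92.5% and 0.232% of the 15109 regions called in all 9 lists, which include those 358 members. Against the median of the shared regions, 267 of the 358 had a lower relative fold in every day 8 list than in every day 4 list, where 30.8% of the 15109 regions did. The 15 regions whose own fold was lower lay both inside and outside protein-coding genes. Those inside included regions of Dock10, a guanine nucleotide exchange factor of lymphocytes, Cdk17, a cyclin-dependent kinase, Mbd6, Thada and Pcnx2. Outside genes, the region chr17:13654545-13655296 had folds of 10.09, 9.333 and 10.035 on day 4 and 6.667, 5.639 and 6.364 on day 8. Of those 15 regions, 4 had a high local background, as described below, and 6 had a reduced-list peak in at least 1 day 21 list.

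By day 21 the members had divided outcomes. None of the 3 reduced day 21 lists held a peak in 199 members (50.1%, 95% exact binomial interval 45.1% to 55.2%), 1 list did in 85, 2 lists did in 52 and all 3 did in 61 (15.4%). Ranking the peaks of all lists by fold enrichment, day 21 included, gave another set of members. Of those, 2.82% were in all 3 day 21 lists so reduced and 76.4% in none. With the ranking by q kept and day 8 ranks required to lie beyond 22000, the shares were 8.06% and 67.3%. Among all strong day 4 regions, ranked by q, 2.54% were in none and 90.8% in all 3 of the reduced day 21 lists. Their shares under the fold ranking were not computed. The intervals cover counting error only and treat regions as independent, which neighbouring regions are not. In full ranks, 121 members ranked better in every day 21 list than in every day 8 list, where 14% of the strong day 4 regions did, and 17 ranked worse, where 15% did. A further comparison with day 4 found 285 members ranked worse in every day 21 list than in every day 4 list, against 19.5% of the strong day 4 regions. The mean rank over 3 lists was better on day 21 than on day 8 in 286 members and better on day 21 than on day 4 in 23, where 47.3% and 45.3% of the strong day 4 regions were.

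**Figure D3:**
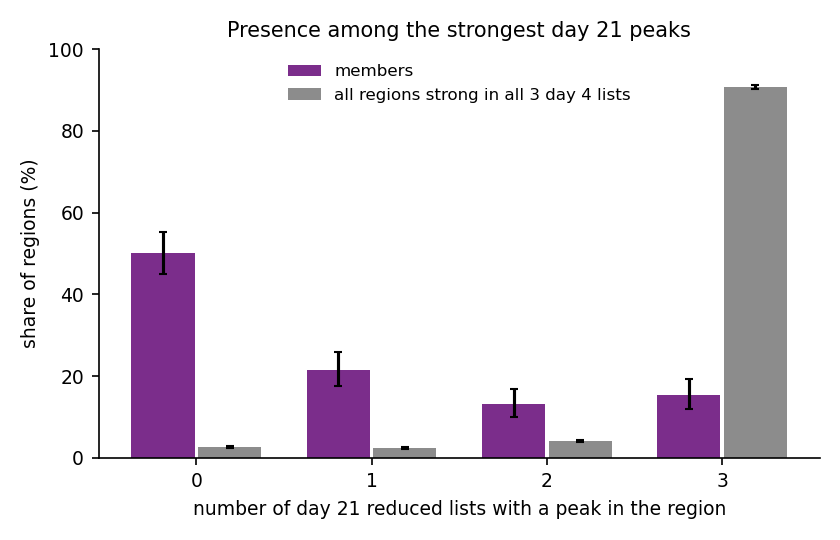
Share of regions (y axis, percent) by the number of reduced day 21 lists with a peak in them (x axis), for the 397 members and for the 14651 strong day 4 regions. Error bars are 95% exact binomial intervals; 50.1% of the members were in no reduced day 21 list, against 2.54% of the strong day 4 regions.

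The 10 members with the best mean rank on day 21, among those in all 3 reduced day 21 lists, included regions inside Zbtb20, Pip4k2a, Arntl, Arid5b and Uhrf1bp1l. Zbtb20 encodes a zinc finger repressor; its region at chr16:42907210-42907829 ranked 9921, 14621 and 14966 on day 4, 19745, 20083 and 20781 on day 8, and 10665, 8696 and 8301 on day 21. The 3 day 21 ranks lay ahead of every day 8 rank and overlapped with those of day 4. A region of Pip4k2a, a phosphoinositide kinase gene, at chr2:18917173-18917779 ranked 11611, 13574 and 14899 on day 4, 24819, 19947 and 20034 on day 8, and 8597, 10970 and 9893 on day 21, when all 3 ranks were ahead of those of day 4. Arntl encodes the circadian clock factor BMAL1, and its region at chr7:113262829-113263451 ranked 13883, 15627 and 14221 on day 4, 21927, 20868 and 21973 on day 8, and 12280, 12225 and 11311 on day 21. That order matched Pip4k2a, with day 21 ahead of both other days. Arid5b, an AT-rich DNA-binding protein gene, had 2 members, and the stronger, at chr10:68276327-68277488, ranked 11389, 8724 and 7610 on day 4, 19530, 21721 and 20229 on day 8, and 13685, 11855 and 11457 on day 21. Its day 21 ranks were all worse than its day 4 ranks. The other 5 of these regions were in Gm17266 and between protein-coding genes, the nearest being Mtap at 93.0 kb and Cul3 at 48.6 kb for 2 of them.

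The largest falls in rank were at narrow regions, none within 1 kb of a protein-coding gene's end. A region inside Eef2, the gene of translation elongation factor 2, at chr10:81178023-81178264 ranked 9497, 9760 and 7184 on day 4 and was called in no day 8 or day 21 list; its local background on day 4 was high, at 3.72 times the lowest of the list. Regions at chr7:59767407-59767688 in the noncoding gene Snhg14 and at chr3:149052541-149052794, 63.4 kb from Adgrl2, were also called in no list of either later day, and a region at chr3:3015093-3015332 was called in 2 day 21 lists but in no day 8 list. These 4 regions, of 240 to 282 bases, were all the members called in no full day 8 list. Dlgap2, a synaptic scaffold gene, held the region chr8:14306728-14307077, which ranked 2954, 6797 and 5056 on day 4, ranked 33965 and 42392 in 2 day 8 lists and was uncalled in the third, and ranked 25136, 29539 and 21763 on day 21. The remaining 5 of the 10 largest falls lay in 9530057J20Rik, Ankar, Tmem267 and Snhg14 and at 1.91 kb from Vmn2r129, and each was uncalled in at least 1 day 8 list. Members called in no day 21 list were 5, the same 5 being the 0.0341% of strong day 4 regions uncalled in every day 21 list, and they were those of Eef2, Snhg14 at chr7:59767407-59767688 and Adgrl2 and 1 region each in Tmem267 and in Gm7592.

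Members at known T cell genes were few and spread over several roles. The gene lists held 300 symbols, of which 297 matched the annotation, and a region belonged to a gene that it overlapped or, outside genes, to the nearest gene within 100 kb. Members made up 2.71% of all strong day 4 regions, and that share is the background for the counts that follow. For memory and stemness genes, 6 of 94 strong day 4 regions were members, at Bcl2, Slamf6, Il6st, Cxcr5 and, with 2 regions, Il7r. CD8 T cell identity genes had 3 of 34, at Ikzf1, Bcl11b and Cd2. Early activation genes had 3 of 67, at Irf4, Nfkb1 and Cd69, and T cell receptor signalling genes had 2 of 72, at Prkcq and Plcg1. Effector and cytotoxic genes had 1 of 42, at Il12rb2, chromatin and DNA methylation genes had 1 of 38, at Dnmt3a, and ribosome and translation genes had 1 of 30, at Eef2. No member lay at the listed genes of inhibitory receptors and exhaustion (0 of 43), glycolysis and nutrient uptake (0 of 39), cell division (0 of 39) or the interferon response (0 of 17). The interferon response list leaves out Sp110 and Sp140, interferon-induced genes with members described below. Nor did any member lie at the listed genes of B cells (0 of 1), myeloid cells (0 of 7), NK cells (0 of 11), CD4 T cells (0 of 8), stroma (0 of 3) or melanocytes (0 of 4). With counts this small, shares from 0 to several percent are not told apart.

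Il7r encodes the receptor chain for interleukin 7, which sustains naive and memory T cells, and both of its strong day 4 regions, of 4 union regions at the gene, were members. The region inside the gene, at chr15:9528016-9528824, ranked 18742, 10378 and 16597 on day 4, 26776, 38418 and 33652 on day 8, and 14862, 27022 and 19353 on day 21. Its fold enrichment was 3.54, 5.50 and 4.23 on day 4, 5.11, 3.99 and 4.35 on day 8, and 6.66, 4.75 and 5.89 on day 21. Folds of days 4 and 8 overlapped, although the ranks do not by the choice of members, and 2 of the 3 day 21 ranks were within 19499. The second region, at chr15:9533276-9533848 and 3.34 kb outside the gene, ranked 16669, 14037 and 8992 on day 4, 28631, 22127 and 24021 on day 8, and 17877, 22949 and 22930 on day 21, when 1 list placed it within 19499.

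Slamf6, a surface receptor gene used to mark stem-like T cells, had a member inside it at chr1:171920984-171921961. It ranked 17082, 17216 and 16089 on day 4, 21248, 21923 and 23203 on day 8, and 17309, 18906 and 15112 on day 21. Days 4 and 21 overlapped, and all 3 day 21 lists placed it within 19499. The region in Bcl2, which encodes an inhibitor of apoptosis, at chr1:106712182-106712852 ranked 16556, 8685 and 18237 on day 4, 22505, 20918 and 26115 on day 8, and 18147, 22656 and 21230 on day 21. Il6st encodes the shared signalling receptor gp130, and a region 30.4 kb from it, at chr13:112432972-112433707, ranked 10072, 14810 and 13327 on day 4, 20114, 21477 and 20059 on day 8, and 19244, 33856 and 13261 on day 21, the widest spread within a day among these memory genes. A region 35.9 kb from Cxcr5, a chemokine receptor gene, at chr9:44562351-44563548 ranked 16339, 11721 and 11932 on day 4, 25637, 20619 and 19992 on day 8, and 32965, 34106 and 20154 on day 21. No day 21 rank of the Cxcr5 region was within 19499.

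Members at early activation, T cell receptor signalling and CD8 T cell identity genes differed on day 21. Nfkb1, which encodes an NF-kB subunit, had a region inside it at chr3:135602621-135603435 that ranked 13164, 11823 and 14116 on day 4, 22600, 20837 and 24734 on day 8, and 13336, 17654 and 16152 on day 21, within 19499 in all 3 lists. Ikzf1, the gene of the lymphoid factor Ikaros, had a region at chr11:11741553-11742010 that ranked 13270, 15517 and 9722 on day 4, 22491, 26755 and 20675 on day 8, and 13216, 17091 and 15618 on day 21, likewise within 19499 in all 3. Prkcq encodes the kinase PKC theta, and its region at chr2:11211793-11212413 ranked 18807, 18704 and 18782 on day 4, 42420, 35940 and 39730 on day 8, and 34693, 41774 and 31720 on day 21. That region stayed far below the threshold on day 21, and its ranks of days 8 and 21 overlapped. A similar order was seen 9.71 kb from Cd2, an adhesion receptor gene, where the region chr3:101265495-101266198 ranked 17531, 18697 and 19330 on day 4, 37653, 34438 and 44720 on day 8, and 27597, 26655 and 41545 on day 21.

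The region in Bcl11b, a T lineage factor gene, at chr12:107927969-107928485 ranked 13401, 13708 and 16776 on day 4, 30490, 33121 and 26100 on day 8, and 24002, 32479 and 25600 on day 21. For Irf4, a factor induced by receptor signals, a region 6.29 kb away ranked 17497, 19307 and 19229 on day 4, 26527, 21216 and 23974 on day 8, and 19825, 28182 and 28660 on day 21. Neither of these 2 regions was within 19499 in any day 21 list. The region 32.3 kb from Cd69, an early activation receptor gene, had a high local background on day 4 of 3.35 times the lowest of its list and ranked 17938, 16151 and 9890 on day 4, 34366, 26153 and 36733 on day 8, and 23382, 22931 and 18723 on day 21. Il12rb2, which encodes an interleukin 12 receptor chain, held a region that ranked 13842, 16731 and 13330 on day 4, 33214, 26482 and 25154 on day 8, and 19876, 15908 and 27014 on day 21. Plcg1, the gene of a phospholipase downstream of the T cell receptor in lymphocytes and many other cells, had a region ranked 10255, 13608 and 16755 on day 4, 21918, 23612 and 23531 on day 8, and 20402, 34439 and 15578 on day 21. For each of these last 3 genes, 1 of 3 day 21 lists placed the region within 19499.

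At Dnmt3a, whose start window is printed above, the region chr12:3890895-3891759 ranked 18796, 13093 and 15414 on day 4, 20784, 22138 and 23738 on day 8, and 19166, 24267 and 22129 on day 21. Only the first of the 3 day 21 lists placed it within 19499. Of these 17 regions at listed genes, 3 were in all 3 reduced day 21 lists (Ikzf1, Nfkb1 and Slamf6), 2 in 2 lists, 6 in 1 list and 6 in none.

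**Figure D4:**
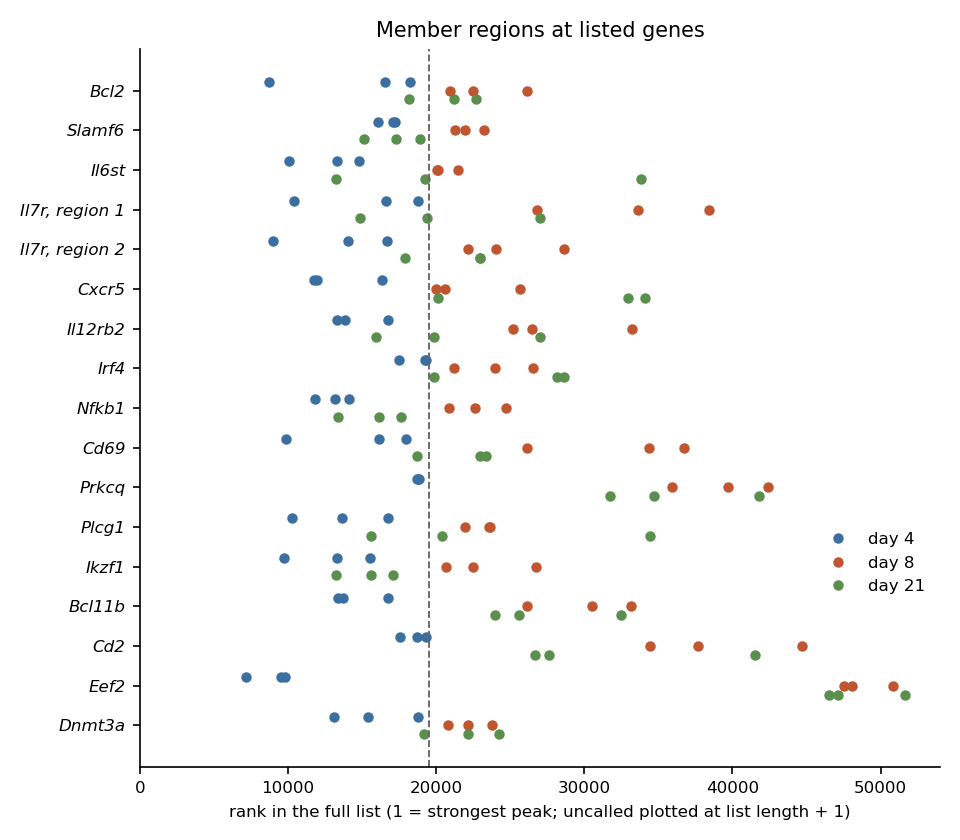
Ranks in the full lists (x axis, 1 is the strongest peak) of 17 members at listed genes (rows), with 1 point per list coloured by day and an uncalled list plotted at the list's length plus 1; the dashed line is rank 19499. Ikzf1, Nfkb1 and Slamf6 have all 3 day 21 points left of the line, and Eef2 was uncalled on days 8 and 21.

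Beyond the lists, Etv1, an ETS family factor gene, had 2 strong day 4 regions and both were members. The region 1 kb or less from the gene's end, at chr12:38778609-38779728, ranked 14807, 13259 and 16743 on day 4, 34627, 27279 and 20258 on day 8, and 19293, 20865 and 18341 on day 21. The other, at chr12:38928566-38929518, ranked 9915, 9645 and 9303 on day 4, 31877, 20521 and 20789 on day 8, and 14753, 15658 and 9365 on day 21, when it was within 19499 in all 3 lists. Lsp1, an actin-binding protein gene of leukocytes, also had 2 of 2 strong day 4 regions among the members, at chr7:142460481-142461054 and chr7:142462247-142463110, and neither was within 19499 in any day 21 list. Runx2, a RUNX family factor gene, had 2 of its 7 strong day 4 regions among the members. These genes were named after their values were seen.

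Members lay near gene ends less often than strong day 4 regions did, though not among the regions with the lowest day 4 ranks, where most members were. Within 1 kb of either end of a protein-coding gene lay 113 members (28.5%, 95% exact binomial interval 24.1% to 33.2%). Inside such a gene lay 135 (34.0%) and between such genes 149 (37.5%), where noncoding genes were not counted. Among all strong day 4 regions the shares were 53.7%, 26.8% and 19.5%, and among the mirror rule regions 15.4%, 45.3% and 39.3%. The shares varied with the day 4 rank. Mean day 4 ranks from 11756 to 19077 held 80.4% of the members. Among regions so ranked, 33.2% of the 319 members and 33.0% of the 3344 other regions lay near a gene end. Among those ranked from 7643 to 11756, the shares were 9.62% of 52 members and 44.7% of 3611 others. The median width of a union region was 679 bases for members and 957 bases for strong day 4 regions. The widest members were in Pde5a, Plxnc1, Cul1 and Ndnf and, on chromosome 6, at the noncoding gene LOC115490388, at 1700 to 2120 bases.

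Promoter windows in members were close to those of shared regions in base composition, and of 12 motifs searched some were in a smaller and some in a larger share of windows. Median GC content was 65.0% in the 88 member windows, 62.3% in the 8821 windows at regions with a reduced-list peak in all 9 lists and 53.0% in all 32619 windows of the table, and the observed over expected ratio of CpG was 0.795, 0.819 and 0.387 in the same order. Motifs were counted as spelled, on both strands, as a share of windows with a match. The SP1 and KLF motif GGGCGG was in 70.5% of member windows, 69.9% of windows of the shared regions and 35.9% of all windows. The ETS motif CCGGAAG was in 10.2%, 23.0% and 8.92%, and the NFY motif CCAAT in 25%, 41.4% and 37.6%. The RUNX motif TGTGGT was in 11.4%, 11.8% and 16.6%, and the AP-1 motif TGANTCA in 5.68%, 3.79% and 7.85%. The NF-kB motif GGGNNTTCC was in 13.6%, 8.13% and 5.85%, and the interferon response motif GAAANNGAA in 11.4%, 6.45% and 8.53%. The E-box CACGTG was in 12.5%, 11.3% and 7.2%, and the NFAT motif TGGAAA in 14.8%, 14.8% and 21.6%. The TCF and LEF motif CTTTGAT was in 3.41%, 2.48% and 3.76%, the CREB motif TGACGTCA in 3.41%, 4.06% and 1.8%, and the T-box motif AGGTGTGA in 0, 0.748% and 1.28%. In members the ETS share rests on 9 windows, the NF-kB share on 12 and the interferon response share on 10. The 65 windows at mirror rule regions had an ETS share of 12.3%, near that of the members. Their shares were 38.5% for NFY, 6.15% for NF-kB and 3.08% for the interferon response motif. Windows of 1 gene can overlap and several share a member, and a match describes letters in a window rather than a bound factor.

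A subset of members had a high local background on day 4. The local background of a peak was recovered with its pileup and divided by the smallest of the list, and a mean of at least 3 over the 3 day 4 lists was called high. High values were found in 39 members (9.82%, 95% exact binomial interval 7.08% to 13.2%) and in 3.22% of strong day 4 regions, and values of at least 4 in 5.29% of members and 0.669% of strong day 4 regions. Rank fell by a median of 19932 places in these 39 members, as the mean day 8 rank minus the mean day 4 rank. The median fall was 10655 places in the 64 members at 2 to 3 times and 10907 in the 294 below 2 times. Those ranks chose the members, so the falls are a description only. None of the 39 was in all 3 reduced day 21 lists, and 30 were in none. Without them, 358 members remained, of which 17.0% were in all 3 reduced day 21 lists, 47.2% in none and 93.0% called in every full day 8 list.

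**Figure D5:**
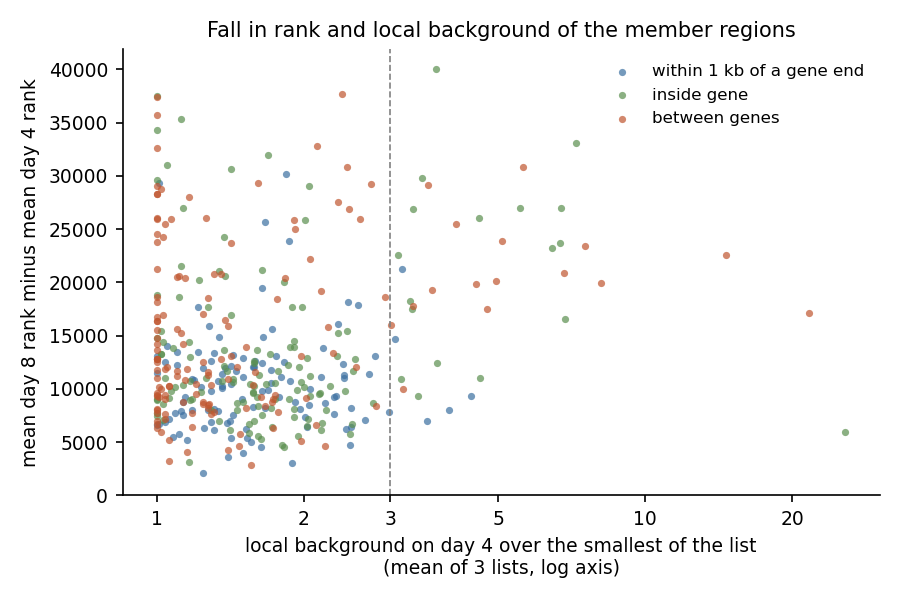
Fall in rank of each member (y axis, mean day 8 rank minus mean day 4 rank, an uncalled list counted at its length plus 1) against its local background on day 4 as a multiple of the smallest of the list (x axis, log scale). Points are coloured by position, and 39 members lie at or right of the dashed line at 3, with a median fall of 19932 places. The median was 10655 at 2 to 3 times and 10907 below 2 times.

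Several groups of neighbouring members had a high background, and some overlapped annotated pseudogenes. Members within 50 kb of each other formed 32 clusters of 77 members, of which 7 clusters held 3 or 4 members each. At Sp110 and Sp140, interferon-induced nuclear body genes on chromosome 1, 4 members lay in chr1:85591132-85625629, and all 4 had a high background. The 4 members at Tmem267 in chr13:119596427-119602360, the 4 at Sfi1 in chr11:3100375-3160006 and the 3 in chr4:3050011-3083983, of which 1 lay within 100 kb of Vmn1r2 and the others of no protein-coding gene, were also all of high background. The cluster at Duxf3, Gm4981 and LOC100504180 in chr10:58223892-58239700 had 2 of 4, and those at Pisd in chr5:32726095-32738218 and Gm40035 in chr2:181918528-181931049 had 0 of 4 each. A region of the Sfi1 cluster overlapped the annotated pseudogene Pisd-ps1, and a member of the Pisd cluster overlapped the pseudogene Gm2420. The region chr17:39847499-39848775, at 21.6 times the lowest background, overlapped Rn18s-rs5, an annotated pseudogene named for 18S ribosomal RNA. Reads that match several copies can be placed at any of them, and the sources used here do not say how such reads were handled. Ranks at these loci are therefore uncertain, and the part of copies in the falls was not tested.

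The members with the best day 4 ranks lay mostly between protein-coding genes. None of the 10 best lay within 1 kb of a protein-coding gene's end, 7 lay between protein-coding genes and 4 had a high background. Some of those 7 overlapped the noncoding gene 2700054A10Rik or the pseudogene Gm2420. The strongest, at chr17:13654545-13655296 and 61.1 kb from Tcte2, ranked 1470, 1998 and 1007 on day 4, 20531, 24988 and 21405 on day 8, and 20187, 18284 and 13138 on day 21, with a background of 1.35 times the lowest. The next, at chr11:3100375-3100640 in the Sfi1 cluster, ranked 2781, 1507 and 4030 on day 4, 26281, 20515 and 31712 on day 8, and 21474, 14117 and 23712 on day 21, with a background of 7.52 times the lowest. Zinc finger genes named Zfp had 16 members (4.03%), against 2.52% of the strong day 4 regions, and none of these 16 had a high background. At Zfp600 both strong day 4 regions were members, and the region chr4:146167035-146168512 ranked 14511, 13087 and 10113 on day 4, 39139, 44504 and 45903 on day 8, and 29552, 37327 and 34999 on day 21. The ranks of days 8 and 21 did not overlap there, and no later list placed it within 19499.

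How often a list that did not choose a region put it on the same side was counted by leaving out 1 list of each day. Regions chosen from the other 2 lists of each day numbered 858, 815 and 795, and the rule was met in the left-out pair by 46.3%, 48.7% and 49.9% of them. By construction, the regions that met it were the 397 members each time. Of all union regions, 4.17%, 4.1% and 4.16% met the rule in the left-out pair. The lists are the same day 4 and day 8 lists that chose the members, and the lists of a day may share a library. The shares therefore describe agreement between lists and support nothing further.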

How the data were processed

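Groups came from the sample titles, since the genotype tag holds the day and the time point tag holds the genotype. The build mm10 and the tools MACS2, Picard, deepTools 2.0 and BWA 0.7.15 are named in the submitters' processing notes, and the sources used here give neither their roles nor their settings. The authors called peaks per library and deposited 9 lists, each with a position, a score, a fold enrichment (a ratio) and −log10 p and −log10 q per peak. The deposited score was not used. These values are the authors' and served to rank and describe peaks within a list.

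Of 353507 deposited peaks, 353295 on chromosomes 1 to 19 and X were used, with 19499 to 22250 per list on day 4, 47513 to 50835 on day 8 and 46492 to 51671 on day 21. Read depth is not in the lists. Peaks were ranked by q, then p, then fold. A region took its best-ranked peak of a list, and an uncalled region was ranked at the list's length plus 1. Fold and p together gave a whole summit pileup under a Poisson formula for 99.995% or more of peaks in any list (tolerance 0.001 in −log10 p). The recovery and the rule were checked on simulated peaks. Gene positions and start windows came from RefSeq tables for GRCm38.p6, and the gene table has no strand, so distances are to the nearer end of a gene. No genome was used here, so peak sequences were not read. Regions are 1-based on mm10. Start windows of chromosome 18 were not used here.

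The members and gene lists were chosen with earlier results of these data known. Regions were named by fixed rules: the 10 largest falls in rank, the 10 best on day 21 among those in all 3 reduced day 21 lists, the 10 best on day 4, members at listed genes (the constitutive list is not reported here), members uncalled on day 8 or day 21, genes with at least 3 members, the 5 widest and those beside the threshold. The threshold for a high local background was chosen after seeing the data, as were the Etv1, Lsp1, Runx2, Zfp600, Mbd6, Dock10, Cdk17 and Thada regions. No test was run. Alternatives covered the ranking, the list length, the overlap, the margin, the q value and each list left out. Computation used numpy 2.4.6, pandas 2.3.3 and scipy 1.17.1 in Python 3.11.15, and plots used matplotlib 3.10.9.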

Additional observations from a re-analysis of the deposited data

How the results depend on the processing

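The set of members depends on how strength is defined. Ranking the peaks of all lists by fold enrichment gave 1455 members, and 242 of the 397 members were among them. Of the 1455, 2.82% were in all 3 day 21 lists reduced by that ranking and 76.4% in none. Within 1 kb of a gene end lay 40.7%, and 98.4% were called in all 3 full day 8 lists. With 15000 peaks per list there were 350 members, 111 of them shared with the 397, and 96.0% were called in all 3 full day 8 lists. With 10000 peaks there were 287, of which 32 were shared, with 11.1% in all 3 and 58.2% in none of the reduced day 21 lists, 36.9% near a gene end and 99.3% called in all 3 full day 8 lists. Full lists left 6 members. Requiring day 8 ranks beyond 22000 left 211 members, with 8.06% in all 3 and 67.3% in none of the reduced day 21 lists and 86.3% called in all 3 full day 8 lists. Accepting 2 of 3 day 4 lists and up to 1 of 3 day 8 lists gave 1963 members, with 44.7% in none and 95.2% called. Counting as near only 500 bases gave 23.4% near a gene end.

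Leaving out 1 list at a time gave 501 to 672 members, and without day 4 list 1, list 2 or list 3 the number was 672, 650 and 642. The share in all 3 reduced day 21 lists ran from 12.2% to 20.2%, that in none from 43.4% to 58.2%, that near a gene end from 24.7% to 30.6% and that called in all full day 8 lists from 90.9% to 95.6%. Using the peak of highest fold in a region moved the relative folds by less than the spread between lists. The cause of these shifts was not tested, apart from fewer lists making the rule easier to meet. No paired analysis was possible because the results come from no test. Day 4 lists held fewer peaks, read depth is not in the lists, and a rank within a list is not a level that compares across lists.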
